A study of Mus musculus with 4 samples.

Results

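*Shh* sits on chromosome 5 of mouse among genes that are not part of the Hedgehog (HH) pathway. 9 of these neighbours (*Insig1*, *En2*, *Rbm33*, *Rnf32*, *Lmbr1*, *Nom1*, *Mnx1*, *Ube3c* and *Dnajb6*) were chosen by their names from 46983 listed genes, to examine whether RNA of genes next to the targeted allele differs between mutant and wild-type larynx. Bulk RNA-seq was done on larynx tissue dissected at E10.5, when the embryos had 32 to 35 somites. There were 2 pools of 3 larynxes from *Shh-/-* embryos and 2 pools of 3 larynxes from Swiss Webster wild-type (WT) embryos. The mutants carry *Shhtm1amc*, a germline null allele kept on a Swiss Webster background, so every cell of the embryo and not only the larynx lacks the gene's function. The sample labels write the mutant genotype as *Shh+/-*, whereas the series text and the methods write *Shh-/-*, and the second form is used here. The pools are named by the numbers in their labels, *Shh-/-* pools 1 and 2 and WT pools 4 and 6. The labels do not say whether the embryos of a pool shared a litter, so the tests measure the spread between pools. RNA integrity numbers were 8 and 7.7 in the *Shh-/-* pools and 7.7 and 9 in WT.

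The *Shh* locus is best known for regulation over long distances. *Shh* encodes a secreted morphogen that the foregut epithelium makes and the underlying mesenchyme receives. Several of its enhancers lie far from the gene, in a long stretch with few genes that ends at *Rnf32* and *Lmbr1*, and the enhancer for its limb expression lies inside an intron of *Lmbr1*. On the other side of *Shh* are *Rbm33*, *En2* and *Insig1*, and beyond *Lmbr1* come *Nom1*, *Mnx1*, *Ube3c* and *Dnajb6*.

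The values are TPM, a measure of transcript abundance scaled for transcript length so that each library sums to the same total. The ratio of coverage to FPKM gave 18.3 M aligned reads of 75 nt for *Shh-/-* pool 1 and 37.9 to 41.7 M for the other 3 libraries. Genes with a mean of at least 1 TPM were compared as log2(TPM + 1) with limma, which shares its estimate of the spread among genes, and p-values were adjusted by Benjamini-Hochberg over the 16972 genes tested. Each difference is the *Shh-/-* mean minus the WT mean of these log2 values, and the added 1 makes it smaller than the true change where TPM is low. HH target genes were lower in both *Shh-/-* pools. *Ptch1*, the HH receptor and a target of the pathway, was at 12.9 and 13.8 TPM in mutant larynx against 57.8 and 55.1 TPM (log2 difference −2.00, SE 0.12, limma adjusted p = 0.0319). *Hhip*, an HH-binding inhibitor that the pathway induces, was at 0.149 and 0.635 TPM in the mutants, compared with 11.3 and 15.3 TPM in WT (log2 difference −3.36, SE 0.27, limma adjusted p = 0.0323). *Gli1*, a transcription factor of the pathway, was at 3.20 and 8.45 against 41.7 and 32.9 TPM (log2 difference −2.59, SE 0.41, limma adjusted p = 0.0715), which missed the threshold. No gene of any kind was called in limma without *Shh-/-* pool 1, without *Shh-/-* pool 2 or without WT pool 4 (0 of 16972, with 2800, 3761 and 3551 at an unadjusted p under 0.05), and 16 were without WT pool 6. *Shh* RNA itself was not absent in the mutants, at 10.4 and 10.8 TPM against 23.7 and 42.1 TPM, and the gene tables do not tell which exons the remaining reads cover. Markers of the labelled tissue were present, since 10 listed epithelial genes summed to 599 to 687 TPM in the *Shh-/-* pools and 636 to 643 TPM in WT, and 8 mesenchymal genes to 493 to 530 and 409 to 423 TPM. Of the epithelial genes 5 were higher and 5 lower, with log2 differences from −2.13 to 0.44. In limma 0 passed, and 5 had an unadjusted p under 0.05, against 24.8% of all tested genes. Pools were fully separated for each of the 5 lower epithelial genes and for 3 of the higher ones, against 22.7% and 38% of all tested genes. Of the mesenchymal genes 4 were higher and 4 lower, and 1 passed (*Twist1*, higher), without which the other 7 summed to 383 and 368 TPM in *Shh-/-* and 377 and 365 TPM in WT. The pools of the genotypes were fully separated for each of the 4 higher genes and for 3 of the lower ones, against 38% and 22.7% of all tested genes. *Foxf1*, a forkhead factor of foregut mesenchyme, was at 0.848 and 9.57 against 72.3 and 64.6 TPM (log2 difference −3.97, limma adjusted p = 0.0976). *Tbx5* and *Osr1* were also lower in both *Shh-/-* pools (log2 differences −2.23 and −1.58). Among the 4 higher mesenchymal genes the largest log2 difference was 1.57, for *Twist1*. In lists for other cell types, 2 of 10 tested muscle genes and 1 of 9 neural crest genes passed as higher in limma, against 0.56% of all tested genes. All 10 tested muscle genes had a higher mean, but log2 differences ranged from 0.11 to 2.13. Pools were fully separated for 7 of the 10, against 38% of all tested genes, and overlapped for the rest. The muscle list summed to 232 to 363 TPM in *Shh-/-* and 127 to 128 TPM in WT. Of the neural crest genes 8 were higher and 1 lower, and that list summed to 180 to 190 TPM in *Shh-/-* and 101 to 126 TPM in WT. All 7 blood genes were lower, 0 of them passed in limma, and none had an unadjusted p under 0.05.

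None of the neighbouring genes passed an adjusted p of 0.05. 8 of the 9 members had a mean of at least 1 TPM and were tested, and 0 were called in limma, where 0.725% of all tested genes were (0.56% higher and 0.165% lower). Before adjustment, 3 of the 8 had a p under 0.05 (*Mnx1*, *Rbm33* and *Rnf32*), against 24.8% of all tested genes. 1 was higher and 2 were lower, against 17.5% and 7.22% of all tested genes. With each of the 4 pools left out in turn, the log2 difference of *Mnx1* was −1.06 to −0.66. That of *Rbm33* was 0.32 to 0.39 and that of *Rnf32* −1.0 to −0.39, so these 3 genes kept their direction. The 8 genes split evenly, with 4 higher and 4 lower in the *Shh-/-* pools, although centring each library on its median put *Nom1*, *Ube3c* and *Dnajb6* below 0 as well. For 5 of them the pools of the genotypes were fully separated, 2 higher (*Rbm33* and *Nom1*) and 3 lower (*Insig1*, *Rnf32* and *Mnx1*). Pools of the genotypes did not overlap for 60.7% of all tested genes, made up of 38% higher and 22.7% lower in *Shh-/-*. The median log2 difference of the 8 tested members was −0.03, and 0.01 with *En2* included, beside a median of 0.08 over all tested genes. With 2 pools against 2, an exact permutation test of a single gene cannot give a p below 0.33.

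**Figure D1:**
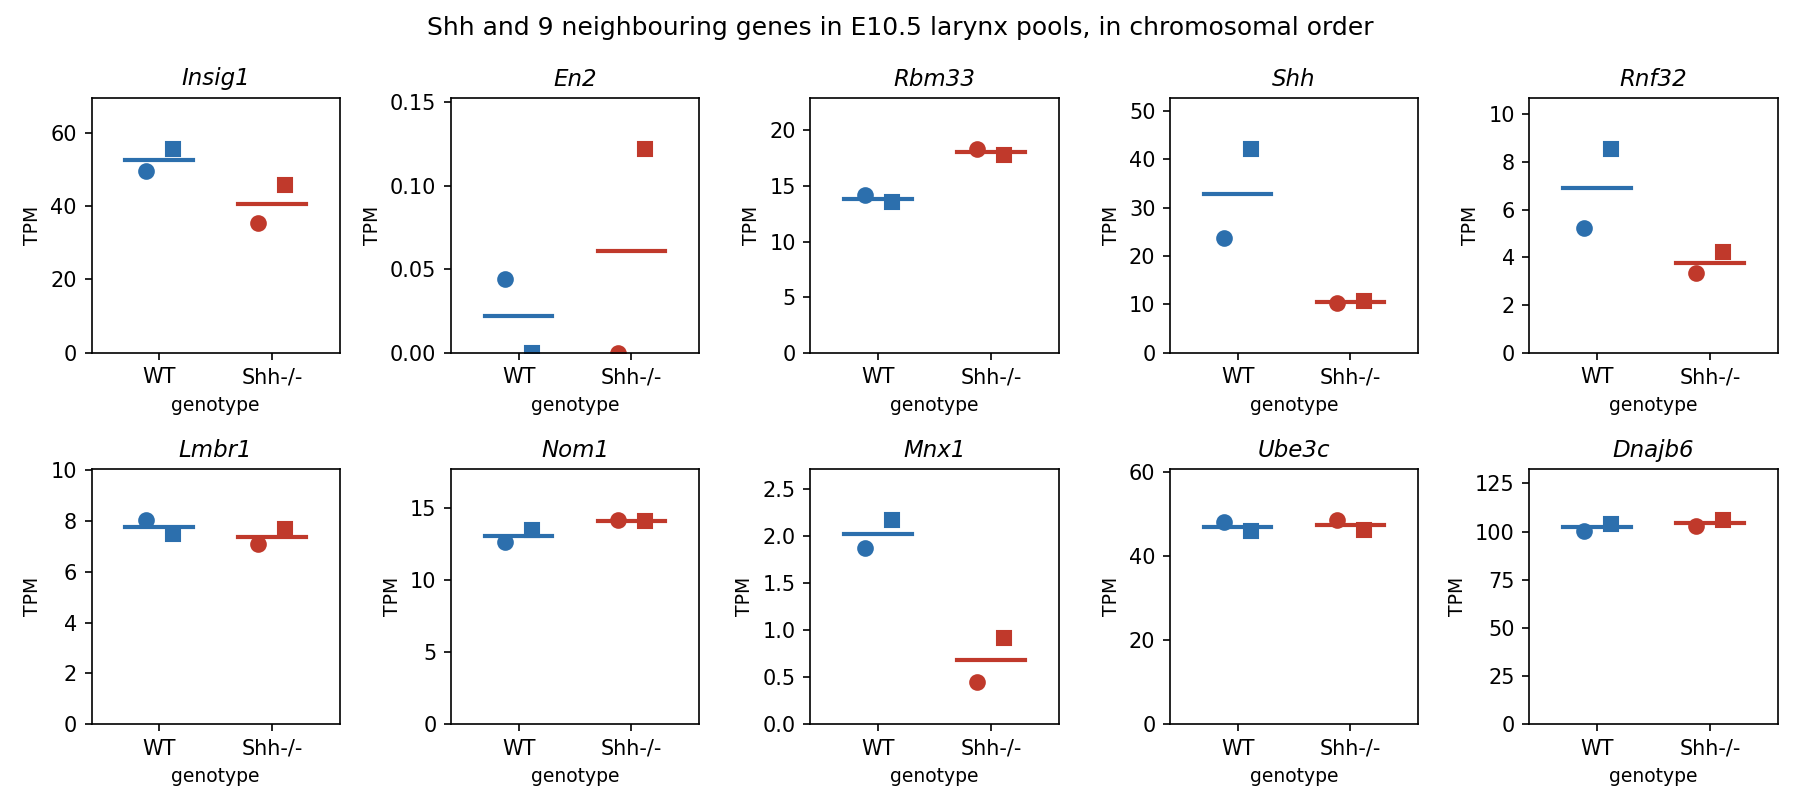
TPM of *Shh* and its 9 neighbours in each larynx pool, in chromosomal order, with the genotype on the x axis and TPM on a y axis that starts at 0 in each panel. Circles are WT pool 4 and *Shh-/-* pool 1, squares WT pool 6 and *Shh-/-* pool 2, and bars the means of 2 pools; *Insig1*, *Rnf32* and *Mnx1* were lower and *Rbm33* higher in both *Shh-/-* pools, while the points of *Lmbr1*, *Ube3c* and *Dnajb6* overlap between genotypes.

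Among the members, the levels in WT larynx covered a wide range. *Dnajb6* was the highest with 102.2 ± 2.49 TPM (SD, n = 2 pools), followed by *Insig1* with 52.5 ± 4.31 TPM and *Ube3c* with 47.0 ± 1.6 TPM. *Rbm33* with 13.9 ± 0.49 TPM and *Nom1* with 13.0 ± 0.59 TPM came next. *Lmbr1* had 7.77 ± 0.38 TPM, *Rnf32* 6.90 ± 2.34 TPM and *Mnx1* 2.02 ± 0.21 TPM. *En2* was listed close to 0. The difference between *Rbm33* and *Nom1* was of the size of their spread, and the WT pools of *Lmbr1* and *Rnf32* overlapped.

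The sequences just before the starts of these genes are shown because 4 of the members, 3 lower and 1 higher, had non-overlapping pools with the largest differences, and a shared element could be looked for there. RefSeq (GRCm38.p6, the assembly of mm10) held a promoter for 8 of the 9 members, and no entry was found for *En2* or *Shh*. Each line gives the 250 bases before a start that RefSeq annotates, 5′ to 3′ on the gene's strand, with every GC box (GGGCGG or its reverse complement, a site known for binding of SP1-type factors) in capitals. *Mnx1* is read from chr5:29478471-29478720 (minus strand), *Rnf32* from chr5:29195743-29195992, *Insig1* from chr5:28071162-28071411 and *Rbm33* from chr5:28316939-28317188 (plus strand). RefSeq starts can differ from those of the gene tables, and the windows of *Insig1*, *Rbm33*, *Rnf32*, *Nom1* and *Dnajb6* reach past the gene start given in the tables.
Mnx1: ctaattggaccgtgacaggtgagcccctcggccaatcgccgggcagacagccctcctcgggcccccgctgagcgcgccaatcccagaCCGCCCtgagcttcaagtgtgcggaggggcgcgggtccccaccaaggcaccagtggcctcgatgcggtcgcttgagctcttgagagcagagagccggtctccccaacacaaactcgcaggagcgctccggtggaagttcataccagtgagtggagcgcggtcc
Rnf32: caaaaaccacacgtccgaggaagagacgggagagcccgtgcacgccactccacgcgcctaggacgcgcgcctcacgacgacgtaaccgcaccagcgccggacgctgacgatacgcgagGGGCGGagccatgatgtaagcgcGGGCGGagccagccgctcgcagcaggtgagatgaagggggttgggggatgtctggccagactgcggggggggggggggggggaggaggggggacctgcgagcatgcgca
Insig1: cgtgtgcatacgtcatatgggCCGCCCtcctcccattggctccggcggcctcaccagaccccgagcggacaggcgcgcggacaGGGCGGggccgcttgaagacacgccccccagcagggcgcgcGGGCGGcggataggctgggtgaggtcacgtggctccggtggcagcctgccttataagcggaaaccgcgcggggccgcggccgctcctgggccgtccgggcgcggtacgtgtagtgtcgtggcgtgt
Rbm33: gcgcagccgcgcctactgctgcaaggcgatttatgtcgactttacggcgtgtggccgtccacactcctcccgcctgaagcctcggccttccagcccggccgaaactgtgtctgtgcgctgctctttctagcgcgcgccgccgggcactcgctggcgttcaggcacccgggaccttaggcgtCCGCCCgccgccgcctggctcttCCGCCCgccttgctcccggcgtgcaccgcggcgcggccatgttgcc

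A GC box was present in all 8 promoters, 1 to 3 in each, and in 32.7% of 32851 RefSeq promoter windows of the same length, so that it did not set the members that were lower in *Shh-/-* apart from the others. The windows of the members were rich in G and C, with a median of 68.2% (47.2 to 74.8%) against 52.4% for all windows. CpG dinucleotides were at 0.52 to 1.34 times the number that base composition gives, with a median of 0.91 against 0.37 for all. 9 further motifs were searched on both strands. A GLI site in the form GACCACCCA was in 0 of the 8 windows and in 0.225% of all. The TATA box TATAAA was also in 0 of the 8 and in 12.4% of all, the homeobox core TAATTA in 0 and 4.84%, the cAMP element TGACGTCA in 0 and 1.55%, and a sterol element in 0 and 0.0731%. CCAAT was in *Insig1* and *Mnx1* (33.8% of all), CACGTG in *Insig1* (6.02%), and CACCTG in *Mnx1* and *Rnf32* (17.2%). CGGAAG was in *Rbm33*, *Nom1*, *Ube3c* and *Dnajb6* (13.6%). Each motif was counted on its own, so matches of different motifs may share bases. The motifs were chosen after the values of the genes had been seen.

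*Mnx1* encodes a homeodomain transcription factor known from motor neurons, the notochord and the early endoderm and pancreas. It lies 1006 kb from *Shh*, at 29473034 to 29478470 on chromosome 5 of mm10, on the minus strand. It was at 0.450 and 0.912 TPM in *Shh-/-* larynx, compared with 1.87 and 2.17 TPM in WT. Both mutant pools were therefore below both WT pools, and the mutant mean was 33.7% of the WT mean. The log2 difference of −0.86 (SE 0.25) was the largest among the tested members, with a 95% interval from −1.51 to −0.21, an unadjusted p of 0.0192 and a limma adjusted p of 0.145. With a pseudocount of 0.1 in place of 1 the log2 difference was −1.50. Few reads stand behind these values. The coverage of *Mnx1* gave whole numbers of aligned bases at a transcript length of 2250 nt, and these amounted to 8.85 and 42.5 reads of 75 nt in the *Shh-/-* pools and 79.8 and 96.5 in WT. Without the shallower *Shh-/-* pool 1 the log2 difference was −0.66.

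Genes that mark the tissues of *Mnx1* were measured beside it. All 12 genes of a neuron list were higher in *Shh-/-* with fully separated pools, against 38% of all tested genes. 7 of them passed the threshold as higher, against 0.56% of all tested genes. The 12 genes summed to 861 to 953 TPM in *Shh-/-* and 162 to 237 TPM in WT. Of 11 motor neuron genes 6 were tested, 3 higher and 3 lower. *Isl2* and *Phox2a*, transcription factors of spinal and cranial motor neurons, rose by 2.13 and 2.59 on the log2 scale (limma adjusted p = 0.0463 and 0.0493), and 0 passed as lower. These calls were lost without *Shh-/-* pool 1, *Shh-/-* pool 2 or WT pool 4, when 0 of all genes passed. *Lhx3*, which acts in spinal motor neurons, was listed at 0 in all 4 libraries, and *Olig2*, which marks their progenitors, at no more than 0.0593 TPM. *Isl1*, the most abundant gene of the list and a factor of motor and sensory neurons and of cardiac progenitors, was at 68.3 and 57.3 TPM in *Shh-/-* against 93.1 and 115.7 TPM in WT (log2 difference −0.72, limma adjusted p = 0.104). The summed level of the motor neuron list was 112 to 128 TPM in *Shh-/-* and 123 to 132 TPM in WT, and without *Isl1* it was 59.4 and 54.4 TPM in *Shh-/-* and 30.0 and 16.6 TPM in WT. *Nkx6-1*, a homeodomain factor of motor neuron progenitors and of the pancreas, was at 0.0726 and 1.85 TPM in *Shh-/-* against 15.8 and 5.82 TPM in WT (log2 difference −2.62, limma adjusted p = 0.118). *Foxa2*, a forkhead factor of endoderm, notochord and floor plate, was at 5.34 and 9.12 against 29.2 and 39.8 TPM (log2 difference −2.13, limma adjusted p = 0.0602). Of the notochord and floor plate list, *T* was at 2.64 and 2.21 TPM in *Shh-/-* and 1.51 and 1.77 TPM in WT, and *Noto* was at 0 in 3 libraries and 0.132 TPM in WT pool 4. Of that list 6 genes were tested, and 1 of them (*Foxa2*) had an unadjusted p under 0.05, against 24.8% of all tested genes. The list had 3 genes higher and 3 lower with a median of 0.03, and 0 passed in limma. Its 7 genes summed to 39.9 to 47.4 TPM in *Shh-/-* and 61.1 to 76.2 TPM in WT, and without *Foxa2* the other 6 summed to 34.6 and 38.3 TPM in *Shh-/-* and 31.9 and 36.4 TPM in WT. In whole tissue, fewer cells of a type and less RNA per cell cannot be told apart, and the part of any of these cells in the level of *Mnx1* was not tested.

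By its values in the 4 libraries, each taken as a difference from the WT mean, *Mnx1* lay closest to *Gm43096* among the 1151 tested genes of chromosome 5, at a Euclidean distance of 0.16 on the log2 scale. *Fgfr3*, an FGF receptor, followed at 0.24 and *Cxcl15*, a chemokine, at 0.30. *Gm43096* is a processed pseudogene on the other side of *Shh*, 596 kb away. The added 1 makes the differences of *Mnx1* smaller, and these distances rest on it. As a share of the WT mean, the mutant mean was 33.7% for *Mnx1*, 57.9% for *Gm43096*, 55.5% for *Fgfr3* and 38.8% for *Cxcl15*.

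*Rnf32*, which encodes a RING finger protein known from testis, is the first protein-coding gene after the long interval on one side of *Shh*. It lies 729 kb away, at 29195992 to 29228457 on the plus strand. Only 4 other listed genes end past *Shh* and start before *Rnf32*, all on the plus strand and all at 2.20 TPM or less. Of these, *9530036O11Rik* and *Gm26894* start within *Shh* and overlap it. *Rnf32* was at 3.35 and 4.23 TPM in mutant larynx, compared with 5.25 and 8.55 TPM in WT. The groups did not overlap, but the WT pools differed more from each other (0.61 on the log2 scale) than WT pool 4 did from the higher mutant pool. The mutant mean was 54.9% of the WT mean, and the log2 difference was −0.70 (SE 0.27, 95% interval −1.39 to −0.00254, unadjusted p = 0.0494, limma adjusted p = 0.201). It depended on WT pool 6, since it was −0.39 without that pool and −1.0 without WT pool 4. The pseudogene *Gm7420* overlaps *Rnf32* on the same strand and was below 1 TPM in each library.

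*Lmbr1*, which encodes a membrane protein and houses the limb enhancer of *Shh*, lies 762.5 kb from *Shh* on the minus strand, at 29229802 to 29378390. It was at 7.08 and 7.69 TPM in the mutants, compared with 8.04 and 7.50 TPM in WT. The pools of the genotypes overlapped. The log2 difference was −0.06 (SE 0.16) with a 95% interval from −0.47 to 0.34, which on the linear scale is 0.721 to 1.27 times WT. *Lmbr1* and *Rnf32* lie next to each other on opposite strands, and whether the difference of *Rnf32* is larger than that of *Lmbr1* was not tested.

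*Rbm33*, which encodes an RNA-binding protein, is the protein-coding gene closest to *Shh*. It ends 37.6 kb from it, at 28317121 to 28419239 on the plus strand. It was at 18.3 and 17.8 TPM in *Shh-/-* larynx, compared with 14.2 and 13.5 TPM in WT. The groups did not overlap, and the gaps within a genotype were 0.04 (*Shh-/-*) and 0.07 (WT) on the log2 scale. The mutant mean was 130% of the WT mean, and the log2 difference of 0.36 (SE 0.13) had a 95% interval from 0.02 to 0.69, an unadjusted p of 0.0414 and a limma adjusted p of 0.188. The estimate was 0.32 to 0.39 when each pool was left out in turn. It was lowest, 0.22, after quantile normalization, and 0.23 with each library centred on its median. Centring moves the median of all tested genes from 0.08 to −0.05.

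*Insig1* encodes a protein of the endoplasmic reticulum that holds back SCAP and the SREBP transcription factors when sterols are plentiful, and it is itself induced by SREBP. It lies 378 kb from *Shh*, at 28071363 to 28078662 on the plus strand. It was at 35.3 and 45.8 TPM in mutant larynx, compared with 49.4 and 55.5 TPM in WT. Both mutant pools were lower, but *Shh-/-* pool 2 lay nearer to WT pool 4 than to *Shh-/-* pool 1. The log2 difference was −0.37 (SE 0.16, 95% interval −0.80 to 0.05, unadjusted p = 0.073, limma adjusted p = 0.237), and without *Shh-/-* pool 1 it was −0.19. Of 20 other genes of the sterol pathway, all tested and spread over other loci, 0 passed at an adjusted p of 0.05 in limma. 14 were lower and 6 higher. An unadjusted p under 0.05 was found for 8 of the lower ones and 1 of the higher ones. Over all tested genes, 7.22% were lower and 17.5% higher at that level. *Hmgcs1*, an early enzyme of cholesterol synthesis, was at 160.8 and 201.7 TPM in *Shh-/-* and 268.7 and 299.9 TPM in WT (log2 difference −0.65, SE 0.14, limma adjusted p = 0.104). *Sqle*, squalene epoxidase, was at 68.4 and 61.7 against 93.9 and 92.4 TPM (log2 difference −0.51, SE 0.11, limma adjusted p = 0.0989). *Sc5d*, a late enzyme of the same pathway, had a log2 difference of −0.56 (SE 0.15, limma adjusted p = 0.129). The median log2 difference of the 20 genes was −0.36, within a range of −1.40 to 0.43, beside a median of 0.08 for all tested genes. Whether the difference of *Insig1* is linked to those of the sterol genes was not tested.

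*En2*, an engrailed homeobox gene of the midbrain and hindbrain, lies 285 kb from *Shh*, at 28165694 to 28172166. It was listed at 0 TPM in *Shh-/-* pool 1 and in WT pool 6, at 0.122 TPM in *Shh-/-* pool 2 and at 0.0441 TPM in WT pool 4. These values correspond to 8.97 and 2.96 reads of 75 nt, so *En2* was barely detected at this depth and was not tested. Its paralogue *En1* and the midbrain gene *Wnt1* were listed at 0 in all 4 libraries. All 37 mitochondrial genes were also listed at 0 in every library, so a listed 0 need not mean that no RNA was present. Whether this holds for *En1* or *Wnt1* was not tested. Of 10 genes that act with engrailed at the boundary of midbrain and hindbrain 4 were tested, 3 higher and 1 lower, and 0 passed in limma. 3 of the 4 had an unadjusted p under 0.05, against 24.8% of all tested genes. *Pax8*, a paired box factor, was at 14.8 and 9.56 TPM in *Shh-/-* and 1.43 and 0 TPM in WT (log2 difference 3.05, SE 0.48, limma adjusted p = 0.0719). *Fgf8*, a signal of that boundary and of the pharyngeal arches, was at 17.7 and 10.4 against 5.24 and 1.16 TPM (log2 difference 1.99, SE 0.56, limma adjusted p = 0.138).

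The remaining members are broadly expressed genes. *Nom1* encodes a nucleolar protein and lies 967 kb from *Shh*, at 29434664 to 29457843. It was at 14.1 and 14.1 TPM in the mutants, compared with 12.6 and 13.5 TPM in WT, with a log2 difference of 0.11 (SE 0.14, 95% interval −0.24 to 0.46, limma adjusted p = 0.641). The mutant pools were both higher, but *Nom1* was lower in *Shh-/-* after quantile normalization or median centring. Of 16 genes of the nucleolus and of proteins with domains like that of *Nom1*, 0 passed in limma. 11 were lower and 5 higher, and 6 of the lower ones had an unadjusted p under 0.05, where 7.22% of all tested genes were lower at that level. *Utp20*, a factor of the small ribosomal subunit, had the lowest p of the list (log2 difference −0.49, limma adjusted p = 0.121).

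*Ube3c*, an E3 ubiquitin ligase of the HECT class, was at 48.5 and 46.1 TPM in *Shh-/-* larynx, compared with 48.1 and 45.8 TPM in WT, 1102 kb from *Shh* (29569242 to 29676092). The pools of the genotypes overlapped, and the log2 difference was 0.01 (SE 0.11) with a 95% interval from −0.27 to 0.29, which is 0.831 to 1.22 times WT. Of 19 other listed HECT ligases 0 passed in limma, with 9 higher and 10 lower. 6 of the 19 had an unadjusted p under 0.05, against 24.8% of all tested genes. Among these *Hectd3* had a log2 difference of 0.77 (SE 0.19, limma adjusted p = 0.116) and *Itch* one of −0.57 (SE 0.14, limma adjusted p = 0.117).

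*Dnajb6*, a co-chaperone of Hsp70 that keeps proteins from aggregating, lies 1268 kb away at 29735688 to 29818134. It was at 103.0 and 105.9 TPM in mutant larynx, compared with 100.4 and 104.0 TPM in WT, again with overlapping pools. The log2 difference was 0.03 (SE 0.09) with a 95% interval from −0.21 to 0.27, which is 0.865 to 1.21 times WT. Of 20 genes of the DNAJ and Hsp70 families 17 were tested and 0 passed in limma, 12 being higher and 5 lower. *Dnaja2* was the only tested gene of this list with an unadjusted p under 0.05 (log2 difference −0.23, limma adjusted p = 0.199). Over all tested genes the share at that level was 24.8%. 3 genes overlap *Dnajb6* on the opposite strand, each at 1.88 TPM or less in every library. How strand was used in the counting is not given in the sources used here.

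**Figure D2:**
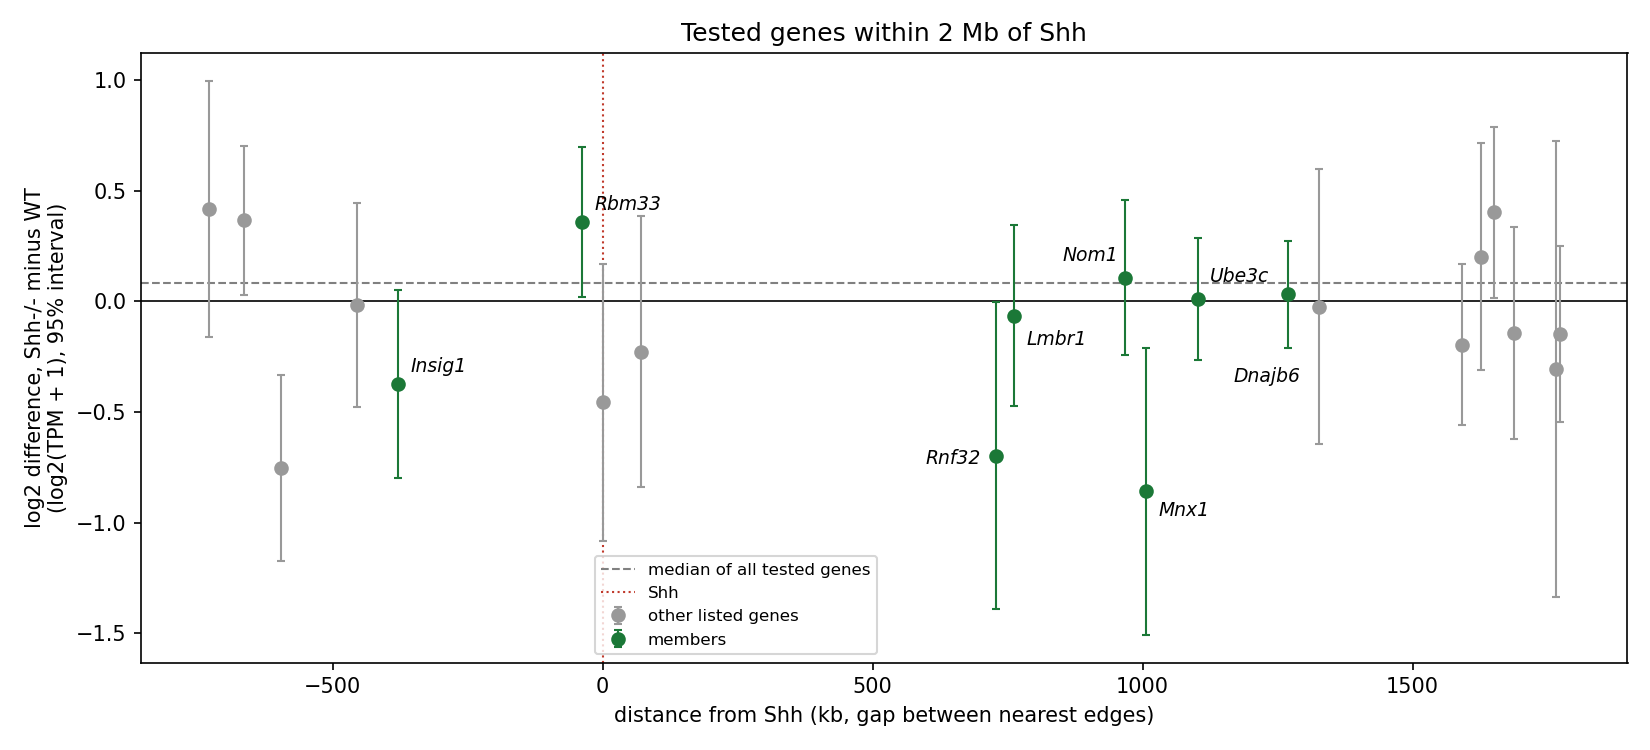
Log2 difference (*Shh-/-* minus WT, on log2(TPM + 1)) of every tested gene within 2 Mb of *Shh*, against its distance from *Shh* in kb, negative toward the start of the chromosome. Green points are the 8 tested members and grey points the 13 other genes, with 95% intervals from limma; the intervals of *Mnx1* and *Rnf32* lie below 0 and that of *Rbm33* above it, and the dashed line is the median of all tested genes, 0.08.

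The members share the surroundings of *Shh* with 56 other listed genes within 2 Mb, most of them pseudogenes and non-coding RNAs. Of these 13 were tested and 0 passed in limma, with 4 higher and 9 lower. 3 of the 13 (23.1%) had an unadjusted p under 0.05, against 24.8% of all tested genes. *Gm43096* was at 11.6 and 14.6 TPM in the mutants, compared with 21.8 and 23.5 TPM in WT. Its log2 difference of −0.75 (SE 0.16) had the lowest p of all neighbours (unadjusted p = 0.00588, limma adjusted p = 0.104). A processed pseudogene can take reads from its parent gene, so its level is uncertain. *Paxip1*, a protein of the DNA damage response 665 kb from *Shh*, was at 31.1 and 29.6 TPM in *Shh-/-* and 24.9 and 21.8 TPM in WT (log2 difference 0.37, SE 0.13, limma adjusted p = 0.18). *Hadha*, a subunit of the mitochondrial trifunctional protein 1651 kb away, was at 139.5 and 181.9 against 119.6 and 121.0 TPM (log2 difference 0.40, SE 0.15, limma adjusted p = 0.191). *Hadhb*, which encodes its partner subunit and starts next to it, was at 92.6 and 67.0 against 81.0 and 93.6 TPM, with overlapping pools.

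*Gm26894*, a long non-coding RNA that overlaps *Shh* on the opposite strand, was named after its values were seen. It was at 0.804 and 1.21 TPM in *Shh-/-* larynx, compared with 1.51 and 1.99 TPM in WT (log2 difference −0.46, SE 0.24, limma adjusted p = 0.302). Reads of *Shh* and of this gene cannot be told apart where they overlap unless strand was used. In *Shh* and in 3 of the 8 tested members (*Insig1*, *Rnf32* and *Mnx1*), *Shh-/-* pool 1 was the lowest library and *Shh-/-* pool 2, WT pool 4 and WT pool 6 followed in this order. The same order was found in 7.65% of all tested genes. It requires both *Shh-/-* pools to be below both WT pools, which held for 22.7% of all tested genes. These 3 members are the ones already given as lower with separated pools, so the order is not a separate result.

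Differences did not grow steadily toward *Shh*. The median absolute log2 difference was 0.37 for 11 tested genes within 1 Mb of *Shh* and 0.17 for 10 genes from 1 to 2 Mb. It was 0.27 for 106 genes from 2 to 5 Mb, 0.24 for 86 from 5 to 10 Mb, 0.26 for 61 from 10 to 20 Mb and 0.27 for the 877 farther away, and 0.27 over all tested genes. The pools of the genotypes did not overlap for 8 of 11 genes in the first interval and 4 of 10 in the second, against 60.7% of all tested genes. On chromosome 5 beyond 2 Mb, 7 of 1130 tested genes passed, 6 higher and 1 lower, and 23.8% had an unadjusted p under 0.05. Each of the first 2 intervals holds few genes, and the values are given as a description with no test of the interval.

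**Figure D3:**
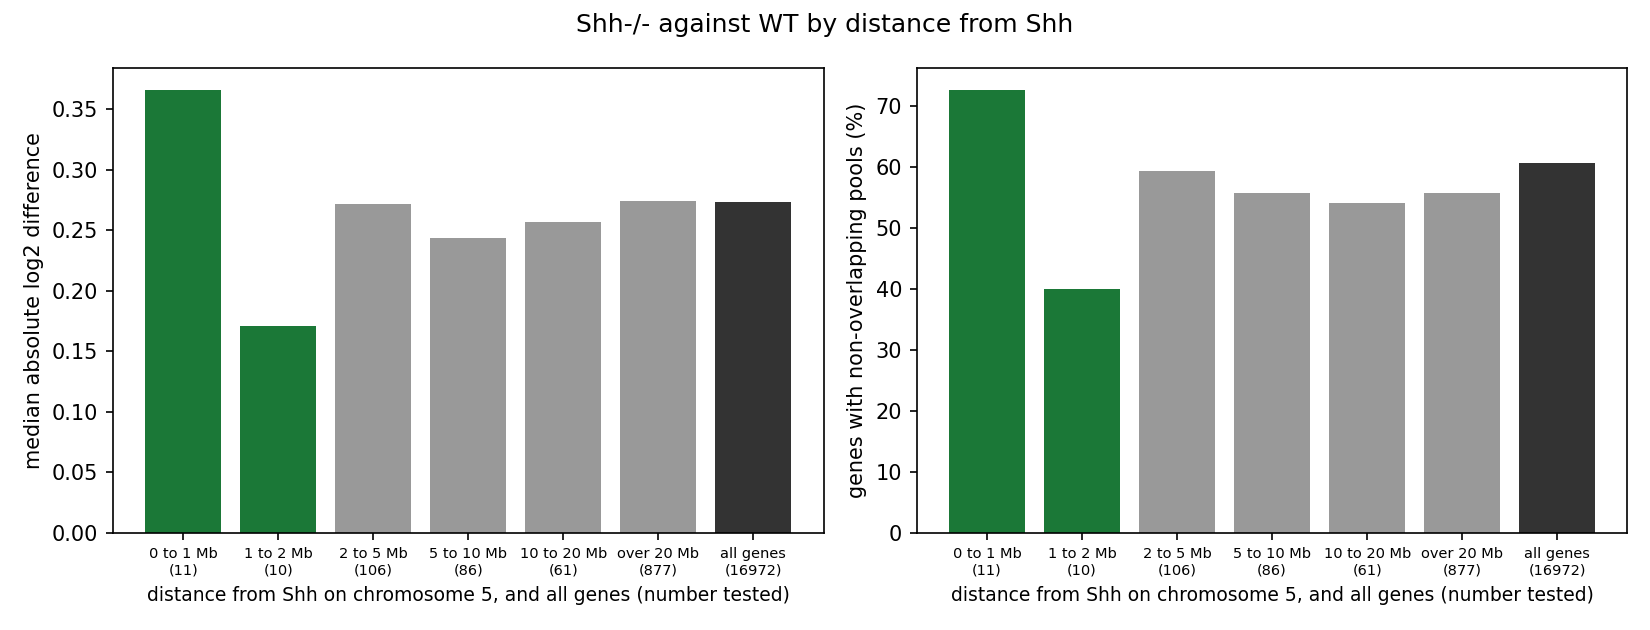
Size of the differences by distance from *Shh* on chromosome 5, with the median absolute log2 difference (left) and the percentage of tested genes whose *Shh-/-* and WT pools did not overlap (right). Bars are distance intervals with the number of tested genes in brackets, green within 2 Mb, grey beyond and black for all tested genes; the first interval (11 genes, 0.37) stands above and the second (10 genes, 0.17) below the value of all genes, 0.27.

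**Figure D4:**
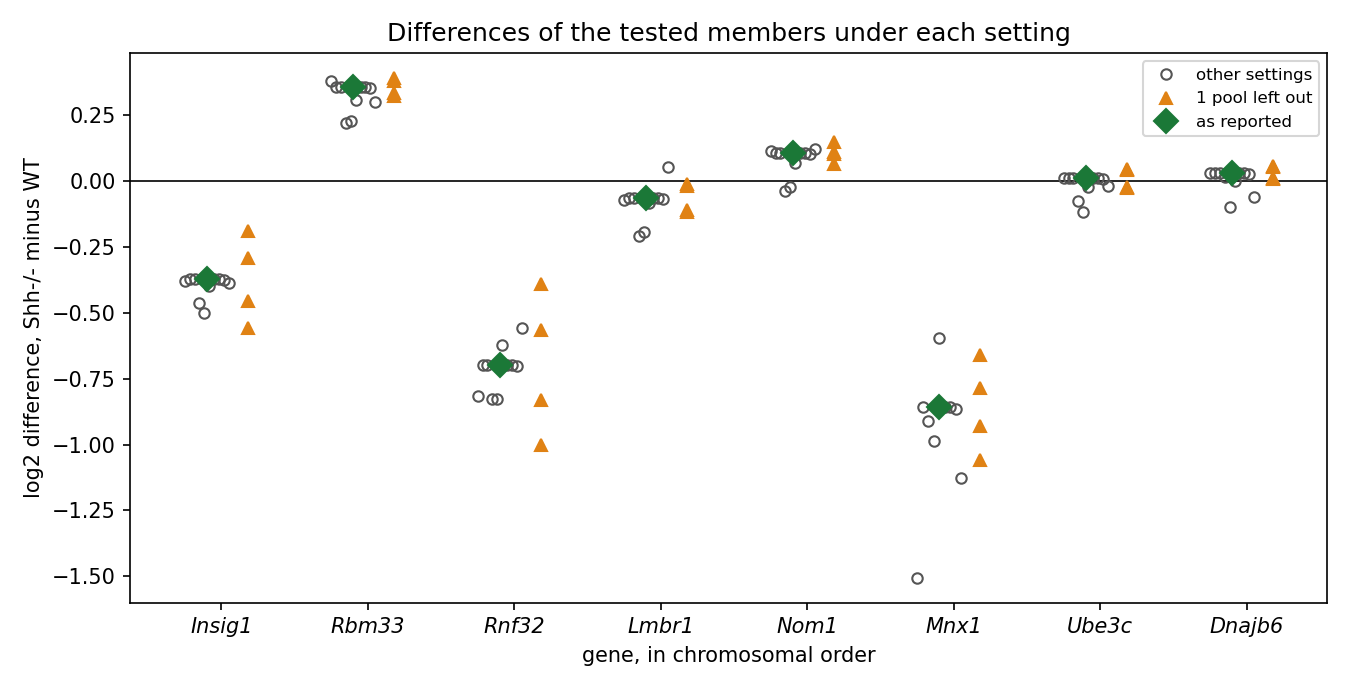
Log2 difference (*Shh-/-* minus WT) of each tested member as reported (green diamond), with each of 4 pools left out (orange triangles) and under the other settings (open circles), with genes in chromosomal order on the x axis. *Insig1*, *Rnf32* and *Mnx1* stayed below 0 and *Rbm33* above it in every fit, and *Lmbr1*, *Nom1*, *Ube3c* and *Dnajb6* lay on both sides of 0.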

How the data were processed

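Larynx tissue was dissected from *Shh-/-* and WT embryos, and each library was made from RNA of 1 pool with a directional kit and sequenced from 1 end. Alignment by the authors was to mm10 in HISAT2 2.1.0, and StringTie 1.3.6 gave the gene tables, versions as in the submitters' processing notes. The deposited tables give, for each gene, coverage (mean read depth per base), FPKM and TPM, and the TPM values were used for the comparisons. How strand was used in the counting is not given in the sources used here. Depth, in M (mega) reads, was derived from the authors' coverage and FPKM.

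TPM was transformed as log2(TPM + 1), genes with a mean under 1 TPM were left out, and *Shh-/-* was compared with WT (2 pools each) in limma 3.58.1 (R 4.3.3) with a mean-variance trend and Benjamini-Hochberg adjustment at 0.05. The fit was tested on simulated data. These were independent normal values whose spread depended only on the mean, so they do not show how the fit behaves with the spread of these pools. Log2 differences, standard errors and 95% intervals come from this fit. Coordinates are those of the tables, and annotation is GENCODE M21, which matched 46488 of 46983 genes.

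The members and gene lists were chosen with earlier results of these data known. Genes named are the members, *Shh*, the HH targets, the 3 other neighbours within 2 Mb with the lowest p, up to 3 genes per list by lowest p, and the 3 genes closest to *Mnx1*. *Isl1*, *Foxf1*, *Tbx5*, *Nkx6-1*, *Lhx3*, *Olig2*, *T*, *Noto*, *En1*, *Wnt1*, *Hadhb* and genes that overlap a member or *Shh* were named after their values were seen. Alternatives were another pseudocount, filter, scaling, unit, variance model, correction for GC content and length, and leaving out each pool. The values of 1 gene of the lists are not reported here.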

Additional observations from a re-analysis of the deposited data

How the results depend on the processing

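None of the 8 tested members passed an adjusted p of 0.05, or of 0.10, under any of the alternatives run. *Insig1*, *Rnf32* and *Mnx1* stayed lower and *Rbm33* higher in every alternative that tested them, and *Mnx1* could not be tested with a mean of at least 5 TPM. The number of genes called among all tested, 123, was 69 with a pseudocount of 0.1, 0 of 28524 with no filter on low values (5011 at an unadjusted p under 0.05), 73 after correction for GC content and transcript length, 858 at an adjusted p of 0.10, and 0 to 16 with each pool left out. The median log2 difference of the 9 members, 0.01, was −0.0743 after quantile normalization and −0.119 after median centring. Signs changed only in members near 0. *Nom1* was −0.0377 after quantile normalization and −0.0222 after centring. *Ube3c* was −0.0743 and −0.119 under the same settings, −0.0228 with FPKM and −0.0187 with the GC correction, and −0.0270 to 0.0460 with each pool left out. *Dnajb6* was −0.0970 after centring, −0.00162 with FPKM and −0.0614 with the GC correction. *Lmbr1* was 0.0518 with the GC correction. The causes of these changes were not tested. No paired analysis was possible because the groups share no replicate number. With 1 pool left out, the lone pool is assumed to vary like the other genotype. The reads behind *Mnx1* and *En2* limit what can be said of them.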
